A study of Homo sapiens with 6 samples.

Results

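The laminin subunit genes LAMA1, LAMA3, LAMA4, LAMA5, LAMB1, LAMB2, LAMB3 and LAMC1 were followed by RNA-seq in MDA-MB-231, a human breast cancer cell line, expressing a control shRNA or Smyca shRNA #1. The 8 genes were chosen by name from the 58302 genes counted in each library. LAMA2, LAMB4 and LAMC3, laminin chain genes outside the chosen set, are given beside them. Smyca is a long noncoding RNA, and the comparison asks how the transcriptome of these cells differs when it is knocked down. Each group held 3 libraries, called biological repeats by the study, with no drug or ligand named in the labels. By the labels both groups carried a short hairpin and differed in its target. Whether the libraries also differed in batch, passage or culture day is not given in the sample titles. A single hairpin against Smyca was sequenced, and the labels do not say whether the cells were clones or pools.

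Laminins are the large glycoproteins that lay down the sheet of a basement membrane. Each is a trimer of 1 alpha, 1 beta and 1 gamma chain, joined through a coiled coil, in which the alpha chain carries the globular domains that integrins and dystroglycan bind and the short arms link trimers to each other. Epithelial cells typically make a trimer of LAMA5 with LAMB1 or LAMB2 and LAMC1, and, at sites of firm anchorage such as the skin, a trimer with LAMA3 and LAMB3 that binds the integrin pair ITGA6 and ITGB4 in hemidesmosomes.

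The libraries held between 14999307 and 16501085 counts, and 15075 genes were tested. Smyca is cut from the primary transcript of a microRNA cluster, and the gene counts do not separate it from that transcript. MIR23AHG, the gene of that transcript, stood at 25.0, 19.5 and 22.0 normalized CPM (counts scaled to a common library size by TMM) in the control repeats 1, 2 and 3 and at 10.5, 6.97 and 5.61 CPM in the knockdown repeats, a log2 fold change of 1.53 (SE 0.26). All log2 fold changes here are control over knockdown, so a positive value is a higher level with control shRNA. By the study's criteria for a differentially expressed gene (DEG), a control/knockdown ratio of at least 1.5 or at most 0.66 with an adjusted p under 0.05, edgeR called 4 of the 15075 genes, or 0.0265%, and MIR23AHG had an edgeR adjusted p of 0.111. The study itself used DESeq in place of edgeR and reported many more DEGs at these cutoffs. The control repeats were spread more widely than the knockdown repeats, with a biological coefficient of variation of 27.9% against 22.1%. The count and FPKM columns deposited for control repeat 2 did not describe the same reads. Only 1.5% of 22870 genes in that library had an FPKM that followed the count within 1%, against 100% in each of the other 5 libraries. Across 15068 genes, its counts differed from those of control repeat 1 by a root mean square of 0.31 and from control repeat 3 by 0.59 on the log2 CPM scale, whereas the reads recovered from its FPKM differed from control repeat 3 by 0.19. The count column was used, and log2 fold changes with the other column are given for the laminin members and most partner genes named.

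The cells carried markers that do not belong to the usual picture of this mesenchymal line. KRT8, a keratin of simple epithelia, stood between 4249 and 7408 CPM, VIL1, a microvillus protein of the gut, between 220 and 501 CPM, and HNF4A, a gut and liver transcription factor, between 65.4 and 194 CPM. The other gut markers were low or absent in part, with CDX1 at 0 counts in all 6 libraries, KRT20 at most 0.369 CPM, LGALS4 at most 1.34 CPM, CDH17 at most 4.25 CPM, CDX2 at most 11.1 CPM and MUC13 between 9.09 and 37.8 CPM. Of the 10 mesenchymal markers, 9 passed the filter on low counts, with VIM between 71.2 and 305 CPM, and SPARC stayed under 1 CPM in all 6 libraries. All 9 tested mesenchymal markers had a positive log2 fold change, with a median of 0.94, 6 at an unadjusted edgeR p under 0.05 and 4 without overlap of the groups, among them ANXA1 (1.51), VIM (1.09) and FOSL1 (0.99). Of all genes tested, 10.4% were past that p and higher in control, and 12.4% had every control repeat above every knockdown repeat. The summed mesenchymal markers ranged from 801 to 1632 CPM in control and from 760 to 1088 CPM in knockdown. The gut markers did not move one way, with 2 of 6 tested positive and 4 negative. VIL1 had a log2 fold change of -0.62 and LGALS4 one of 1.14, both at an unadjusted edgeR p under 0.05, and the summed gut level, mostly VIL1 and HNF4A, was 303 to 580 CPM in control and 641 to 721 CPM in knockdown. The luminal breast markers summed to between 6086 and 6431 CPM in control and between 6668 and 9206 CPM in knockdown. Most of this was KRT8 (log2 fold change -0.47, SE 0.17). ESR1, PGR and FOXA1 were at most 0.192, 0 and 0.132 CPM and were not tested. Of the 6 tested, 3 were positive, among them CDH1 at 0.72 (SE 0.48), and 3 negative. CDH1 stood between 71.5 and 300 CPM and EPCAM between 236 and 336 CPM. Of the markers of other tissues, SERPINA1 (liver) was detected at 26.3 to 74.2 CPM. Among the other liver markers, ALB was at most 0.256 CPM and APOA1 at most 0.0635 CPM. APOB, TTR, FGB and AFP were at 0 counts in every library. COL1A1 (fibroblasts) stood at 8.84 to 21.2 CPM in control and 6.46 to 8.72 CPM in knockdown. COL1A2, COL3A1 and DCN were at most 0.123, 0.127 and 0.0617 CPM, PDGFRB at most 3.10 CPM and LUM at most 7.08 CPM. VWF and PECAM1 (endothelium) were at 0.698 to 5.37 CPM and CD14 (leukocytes) at up to 1.60 CPM. PTPRC and KDR were at 0 counts in every library. What part the makeup of the cells has in the laminin values was not tested, and in bulk RNA fewer cells of a kind and less RNA per cell cannot be told apart.

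None of the 8 laminin genes met the DEG criteria by edgeR, and 1, LAMB1, did by DESeq2. At an unadjusted edgeR p under 0.05, LAMA5, LAMB1 and LAMB2 were higher in control and no member was lower, where 10.4% and 8.74% of all genes tested were past that mark in those directions and 19.2% in either. Of the 6 members that passed the filter on low counts, 5 had a positive log2 fold change and 1, LAMC1, was near 0. Their median was 0.63, against 0.04 over all genes tested. LAMA1 and LAMA4 did not pass the filter. These 2 genes had levels near or at 0 in both groups, so the 6 tested members are those clearly detected in these libraries. The alpha chains LAMA3 and LAMA5 and the 3 beta chains therefore leaned the same way, but the size of that lean depended on which control library was used.

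**Figure D1:**
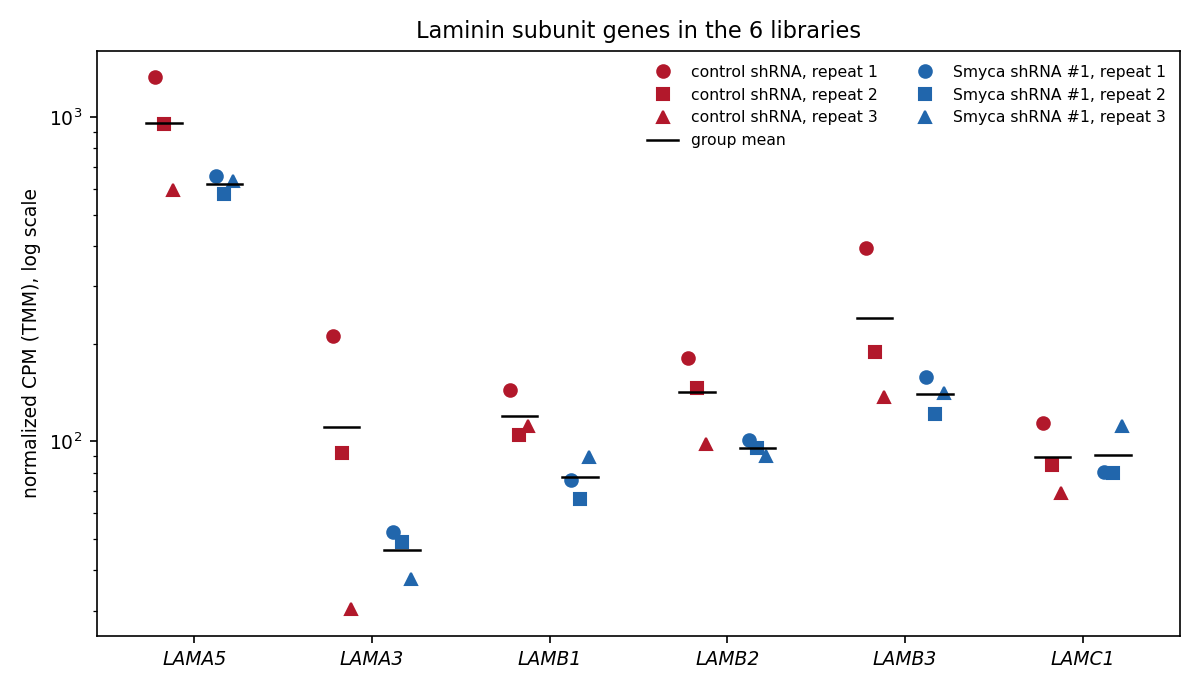
Normalized CPM (vertical log axis) of the 6 tested laminin members in each library. Red symbols are the 3 control shRNA repeats, blue symbols the 3 Smyca shRNA #1 repeats, symbol shape gives the repeat and the short line the group mean. Control repeat 1 is the highest of the 6 libraries for every gene drawn, and control repeat 3 lies at or below the highest knockdown library for every gene but LAMB1.

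LAMA5 encodes the alpha chain of most epithelial basement membranes and had the most reads of the 8 members. It stood at 1324, 952 and 594 CPM in control repeats 1, 2 and 3 and at 656, 577 and 633 CPM in knockdown repeats 1, 2 and 3. The first 2 control repeats were above all knockdown libraries and the third lay among them, so the groups overlapped. This gave a log2 fold change of 0.62 (SE 0.26), with an edgeR p of 0.0434 and an adjusted p of 0.244, which ranged from 0.0190 to 0.612 over the 13 other settings tried. The gene lies at chr20:62307955-62367312 on the minus strand (hg38), and its span meets that of ADRM1 on the opposite strand, a proteasome subunit with 1375 to 2087 counts. The library kit keeps strand, but the strand setting of the counting was not given in the sources used here, so reads of overlapping genes may not have been told apart.

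LAMA3 (chr18:23689453-23956222, plus strand) encodes the alpha chain of the anchoring laminin of skin and other stratified tissue. Its levels were 211, 91.6 and 30.4 CPM in the control repeats and 52.4, 48.8 and 37.6 CPM in the knockdown repeats. The control group ran from the highest to the lowest of the 6 libraries, with a ratio of 6.94 between its extremes against 1.39 in knockdown. Its log2 fold change of 1.26 (SE 0.55) was the largest of the members, with an edgeR p of 0.0504 and an adjusted p of 0.262 (0.0152 to 0.731 over the other settings). Without control repeat 1 the log2 fold change was 0.40, and without control repeat 3 it was 1.70.

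LAMA1, the alpha chain of early embryonic basement membranes, had between 2 and 7 counts in a library and was not tested. LAMA4, the alpha chain of blood vessel and muscle laminins, had 0 counts in all 6 libraries, which allows a level of up to 0.198 CPM in the library with the highest limit, taking 3 counts as the upper limit that a count of 0 allows. Such limits cover counting error only.

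LAMB1, the beta chain of the most widespread laminins, was the single member whose groups did not overlap. It stood at 144, 105 and 112 CPM in control and 75.9, 66.3 and 89.7 CPM in knockdown. Every control repeat was above every knockdown repeat, as was so for 12.4% of all genes tested, with 12.5% not overlapping the other way. The log2 fold change was 0.63 (SE 0.18), with the smallest edgeR p among the members, 0.0071, and an adjusted p of 0.137 (0.0448 to 0.443 over the other settings). It was also the tested member with the smallest spread in control, where the highest library was 1.38 times the lowest. The 3′ end of the gene (chr7:107923799-108003213, minus strand) meets that of DLD on the opposite strand, a mitochondrial dehydrogenase with 1110 to 1641 counts.

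LAMB2 (chr3:49121114-49133118, minus strand) encodes the beta chain of laminins at the kidney filter and the neuromuscular junction. Its levels were 180, 146 and 97.9 CPM in control and 101, 95.1 and 89.99 CPM in knockdown. The third control repeat lay among the knockdown libraries and the other two above them. LAMB2 had a log2 fold change of 0.57 (SE 0.22), with an edgeR p of 0.0281 and an adjusted p of 0.207 (0.0189 to 0.534 over the other settings).

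LAMB3 (chr1:209614870-209652425, minus strand) encodes the beta chain that pairs with LAMA3. It was measured at 394, 188 and 137 CPM in control and 158, 121 and 141 CPM in knockdown. Control repeat 1 was 2.49 times the highest knockdown library, while control repeat 3 was 0.98 times the knockdown mean. LAMB3 had a log2 fold change of 0.78 (SE 0.35), with an edgeR p of 0.0542 and an adjusted p of 0.269 (0.0449 to 0.707 over the other settings), and it was 0.22 without control repeat 1.

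LAMC1 (chr1:183023420-183145592, plus strand) encodes the gamma chain found in most laminins. Its levels were 114, 84.4 and 69.3 CPM in control and 80.6, 80.0 and 112 CPM in knockdown, so that the groups covered the same range. The log2 fold change was -0.02 (SE 0.22), with an edgeR adjusted p of 0.961 (0.697 to 0.990 over the other settings), and its sign turned under 4 of the other settings.

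Of the laminin genes outside the chosen set, LAMA2 and LAMC3 were tested. LAMC3, the gamma chain of some nerve and eye laminins, stayed between 0.82 and 1.97 CPM with its control repeats above the knockdown repeats, and its log2 fold change was 0.70 (SE 0.37, edgeR adjusted p 0.336). LAMA2, the alpha chain of muscle laminin, ranged from 1.35 to 7.62 CPM in control and from 1.84 to 5.94 CPM in knockdown, with control repeat 3 and knockdown repeat 3 the highest (log2 fold change 0.18, SE 0.70, and 0.73 with the FPKM column of control repeat 2). LAMB4 had at most 5 counts in a library and was not tested.

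The position of single libraries was common to the members. Control repeat 1 was the highest of the 6 libraries in 6 of the 6 tested members, and control repeat 3 was not above every knockdown library in 5 of them. The coefficient of variation was larger in control than in knockdown in 6 of 6, from 82.7% against 16.6% for LAMA3 downward. Over all genes the biological coefficient of variation was also larger in control, at 27.9% against 22.1%. The shares of all genes with these library positions were not counted, so the positions cannot be called particular to laminins. Summed over the members, the level was 2367, 1567 and 1041 CPM in the control repeats and 1124, 989 and 1103 CPM in the knockdown repeats. The summed level of control repeat 3 was therefore within the knockdown range, and the other control repeats were above it.

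Leaving out control repeat 3 changed the calls. Then 4 members, LAMA3, LAMA5, LAMB2 and LAMB3, met the DEG criteria as higher in control, among 6.5% of the 15449 genes tested in that fit. LAMB1 did not, with an edgeR adjusted p of 0.0531. With DESeq2 in place of edgeR on all 6 libraries, LAMB1 alone met them, where 3.32% of genes were called higher in control. Without control repeat 1, no member met them, and the log2 fold changes of the 5 positive members lay between 0.22 and 0.49.

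For control repeat 2, reads recovered from the FPKM gave the members other values from its counts. LAMA3 stood at 29.6 CPM by that column and 91.6 CPM by counts, LAMA5 at 626 against 952 CPM and LAMB3 at 137 against 188 CPM. The recovered values were close to the levels of control repeat 3. LAMB1 differed least among the tested members, at 111 against 105 CPM. With that column the log2 fold changes were 0.94 for LAMA3, 0.43 for LAMA5, 0.65 for LAMB1, 0.42 for LAMB2, 0.65 for LAMB3 and -0.17 for LAMC1, and LAMB1 was the 1 member left past an unadjusted edgeR p of 0.05. Which of the columns holds the library as labelled was not tested.

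**Figure D2:**
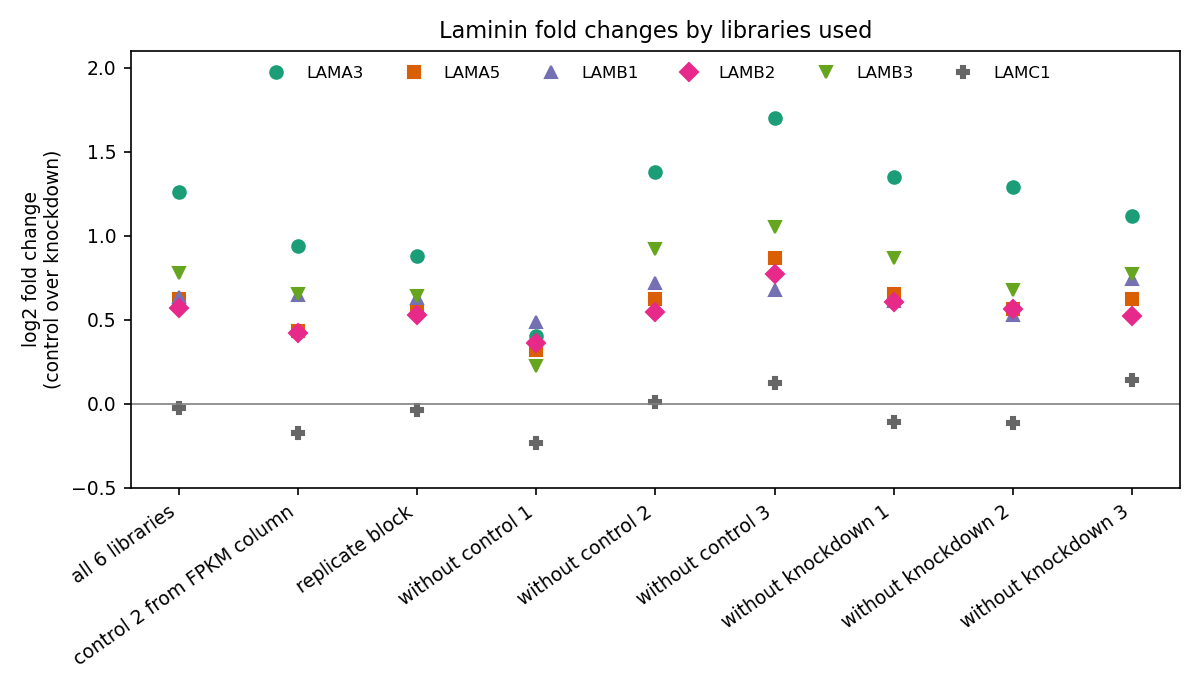
Log2 fold change of each tested member (vertical axis, control over knockdown) for the 6 libraries, for control repeat 2 taken from its FPKM column, for a fit with the repeat number as a block and for fits that leave out 1 library each. The spread of the symbols is narrow for LAMB1, from 0.49 to 0.74 over the left-out libraries, and wide for LAMA3, from 0.40 to 1.70, while LAMC1 stays near the zero line, from -0.23 to 0.14.

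To compare genes with each other, CPM was divided by the length in kilobases of each gene's Ensembl canonical transcript. On this scale the order of levels in knockdown was LAMA5 at 54.4 ± 3.5 CPM per kilobase (SD, n = 3), LAMB3 at 34.8 ± 4.6, LAMB2 at 16.7 ± 0.94, LAMB1 at 13.7 ± 2.1, LAMC1 at 11.4 ± 2.3 and LAMA3 at 4.34 ± 0.72. The ranges of LAMB2 and LAMB1 overlapped, as did those of LAMB1 and LAMC1, and the other neighbours in this order were apart. In control the order of the means began in the same way, at 83.7 ± 32.0 CPM per kilobase for LAMA5 and 59.7 ± 33.9 for LAMB3, and among these 6 genes only the neighbouring ranges of LAMB3 and LAMB2, and of LAMB1 and LAMC1, were apart. The order of the beta chains depended on the length used. The lengths behind the authors' FPKM are shorter, and on the deposited FPKM LAMB2 was above LAMB3, at 114 against 80.4 FPKM as the control mean, which takes in the FPKM of control repeat 2, and 81.3 against 49.1 FPKM as the knockdown mean.

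Among the alpha chains, LAMA5 took 89.7 ± 4.1% of the per-length level in control and 92.03 ± 0.87% in knockdown, and LAMA3 took 9.67 ± 4.7% and 7.36 ± 1.3% (SD, n = 3 each). LAMB3 held 54.2 ± 7.9% of the beta chains in control and 53.3 ± 2.3% in knockdown, LAMB2 24.3 ± 3.9% and 25.8 ± 2.5%, and LAMB1 21.5 ± 5.8% and 21.0 ± 2.5%. None of these shares separated the groups, and two-sided exact permutation p-values lay between 0.5 and 0.9. The summed beta chain level was 155, 91.1 and 71.1 CPM per kilobase in control and 70.5, 58.6 and 66.7 in knockdown, which did not overlap, with an exact permutation p of 0.1 (0.8 after Benjamini-Hochberg adjustment over 8 such tests). The value of 0.1 is the smallest that 3 against 3 libraries can give. With merged exon lengths the exact permutation p was 0.2, and without control repeat 1 the difference of the means was 15.8 in place of 40.6 CPM per kilobase. The summed level of the laminin genes reported here was 212 ± 86.5 CPM per kilobase in control and 136 ± 10.4 in knockdown (exact permutation p 0.3).

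**Figure D3:**
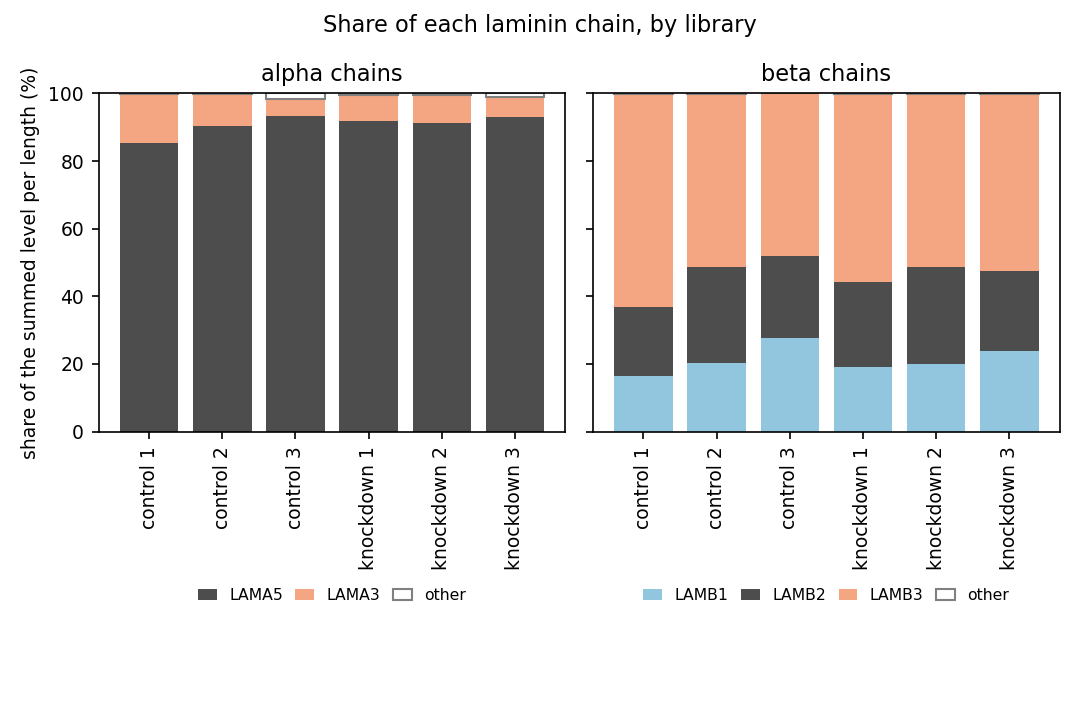
Share (%) that each chain takes of the summed CPM per kilobase of the alpha and beta chain genes, by library, with other chains drawn in white. LAMA5 makes up over 85% of the alpha chains in all 6 libraries. LAMB3 is the largest beta share on canonical transcript lengths, from 48.0% in control repeat 3 to 63.2% in control repeat 1.

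The study concerns Smad and Myc, and AP-1 is a factor long known to act on LAMA3 and LAMB3. The 250 bases before each start site available from RefSeq (GRCh38.p14) were therefore searched on both strands. The patterns were an AP-1 site, TGANTCA, a palindromic Smad site, GTCTAGAC, and an E-box, CACGTG. The AP-1 and E-box patterns can overlap, and did so in no member window. RefSeq windows were matched for 7 of the 8 members, LAMA1 being the exception, and gave 9 windows. An AP-1 match lay in 2 of the 9, and no window held the Smad or the E-box pattern, where 6.57%, 0.182% and 6.34% of the 35116 windows of all genes hold them. The canonical LAMA3 start had no window and was not searched. The LAMA3 window (chr18:23872770-23873019, plus strand) lies inside an intron of the long canonical transcript and before the start of a shorter transcript of 5618 bases. Its AP-1 matches begin 125 and 69 bases before that start, as TGACTCA and TGAGTCA. In LAMB3 the match begins 67 bases before the farthest downstream start site (chr1:209651375-209651624, minus strand), in an intron of the canonical transcript, though an exon of a short transcript of 908 bases also reaches into it. The window of the canonical LAMB3 start (chr1:209652426-209652675, minus strand) had none. The remaining LAMB3 window (chr1:209652330-209652579, minus strand) overlaps the one of the canonical start, had no match and is not shown. These windows are shown because LAMA3 and LAMB3 had the largest log2 fold changes of the members, with AP-1 matches in capitals, 5′ to 3′ on the gene's strand.
LAMA3, start of the short transcript: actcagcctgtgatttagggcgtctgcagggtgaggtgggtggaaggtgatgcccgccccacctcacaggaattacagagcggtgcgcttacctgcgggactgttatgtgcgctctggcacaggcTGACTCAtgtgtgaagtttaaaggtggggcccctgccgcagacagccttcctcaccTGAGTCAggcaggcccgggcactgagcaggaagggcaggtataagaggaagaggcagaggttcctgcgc
LAMB3, downstream start: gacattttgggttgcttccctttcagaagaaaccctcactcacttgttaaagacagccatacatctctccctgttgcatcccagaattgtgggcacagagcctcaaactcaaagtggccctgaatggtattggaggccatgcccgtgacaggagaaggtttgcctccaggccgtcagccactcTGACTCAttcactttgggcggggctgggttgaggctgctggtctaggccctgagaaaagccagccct
LAMB3, canonical start: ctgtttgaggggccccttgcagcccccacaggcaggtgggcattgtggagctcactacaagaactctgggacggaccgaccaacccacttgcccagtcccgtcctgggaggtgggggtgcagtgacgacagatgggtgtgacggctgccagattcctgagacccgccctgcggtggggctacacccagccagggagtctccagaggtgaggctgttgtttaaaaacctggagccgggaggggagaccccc
A match is a description of letters and not evidence of binding. The count files hold 1 value per gene, so the start site in use was not measured. If LAMA3 reads came from that short transcript in place of the canonical one of 10651 bases, its per-length level would be 1.90 times the value given.

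The genes whose levels across the 6 libraries were most like each member were sought among 9540 tested genes with a mean of at least 10 CPM, by the root mean square difference of log2 CPM after centring each gene on its mean. The members also differed among themselves on this measure. LAMA5 and LAMB2 were the closest pair at 0.10, LAMA5 and LAMB3 were 0.19 apart, and LAMA3 was nearest to LAMB3 at 0.44. For LAMA3 the nearest gene was FOSL2, an AP-1 subunit, at 0.11, against a median of 0.94 over the genes compared. FOSL2 stood at 301, 143 and 54.9 CPM in control and 85.1, 71.5 and 60.6 CPM in knockdown, so it too ran highest in control repeat 1 and lowest in control repeat 3. LAMA5 was nearest to LTBP3, a binding protein of latent TGF-beta, at 0.06, and LAMB2 to POFUT2, a protein fucosyltransferase, at 0.04. LAMB1 was nearest to STAT2, an interferon signalling factor, at 0.05. LAMB3 was nearest to GPRC5A, an epithelial membrane receptor, at 0.08, and LAMC1 to FERMT1, an integrin activator of epithelia, at 0.03. The second gene in each case was DNAJB1 for LAMA3, SLC25A25 for LAMA5, GALNT3 for LAMB2, CEACAM1 for LAMB1, COL6A2 for LAMB3 and RRAGD for LAMC1. These values describe 6 libraries.

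Laminin acts with other basement membrane proteins, of which 22 were listed and 14 passed the filter on low counts. None met the DEG criteria by edgeR, and 2, COL7A1 and SMOC2, did by DESeq2, which called 3.32% of all genes higher and 2.22% lower in control. At an unadjusted edgeR p under 0.05, 2 of the 14 were higher in control and 2 lower, beside 10.4% and 8.74% of all genes, and the median log2 fold change was -0.02. The higher ones were collagens of epithelial anchorage. COL7A1, the anchoring fibril collagen, stood at 150, 121 and 43.6 CPM in control and 27.4, 30.9 and 25.2 CPM in knockdown, without overlap (log2 fold change 1.91, SE 0.39, edgeR adjusted p 0.111). COL17A1, a hemidesmosome collagen, was low, at 9.13, 5.48 and 1.99 CPM in control and 1.08, 1.71 and 2.77 CPM in knockdown. Its groups overlapped, with a log2 fold change of 1.58 (SE 0.57). The lower ones, both also without overlap, were NID1 and SMOC2. NID1, which links laminin to collagen IV, stood at 55.8, 70.1 and 40.6 CPM in control and 82.2, 76.6 and 85.0 CPM in knockdown (log2 fold change -0.55, SE 0.20). SMOC2, a calcium-binding matrix protein, had a log2 fold change of -0.74 (SE 0.20). Of the 14, 1 did not overlap with control above and 3 with control below, beside 12.4% and 12.5% of all genes. Agrin (AGRN), a proteoglycan that binds the laminin coiled coil, had the highest level of the list, at 1489, 1158 and 858 CPM in control and 899, 953 and 849 CPM in knockdown. Its log2 fold change was 0.38 (SE 0.20), and 0.17 without control repeat 1. Of the collagen IV chains, COL4A2 stood between 14.4 and 27.9 CPM and COL4A1 stayed under 2 CPM. With the FPKM column of control repeat 2 the log2 fold changes were 1.48 for COL7A1, 1.28 for COL17A1 (edgeR p 0.0799), -0.85 for NID1, -0.84 for SMOC2 and 0.25 for AGRN.

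All 13 laminin receptor genes listed passed the filter, and 0 met the DEG criteria by edgeR and 2, ITGA3 and DAG1, by DESeq2. At an unadjusted edgeR p under 0.05, 2 of the 13 were higher in control and 2 lower, with the same shares over all genes as above, and with a median log2 fold change of 0.26. ITGA3, an integrin alpha chain for laminins with LAMA3 or LAMA5, was at 199, 108 and 89.0 CPM in control and 60.2, 56.3 and 84.1 CPM in knockdown, without overlap (log2 fold change 0.98, SE 0.30, edgeR adjusted p 0.152). ITGA7, a further laminin-binding integrin chain, had a log2 fold change of 0.75 (SE 0.27). Dystroglycan (DAG1), which binds the globular domains of alpha chains through its sugars, went the other way at 86.9, 97.5 and 91.1 CPM in control and 132, 129 and 154 CPM in knockdown (log2 fold change -0.59, SE 0.14, edgeR adjusted p 0.121), and so did the proteoglycan SDC1 (-0.45, SE 0.16). Neither overlapped. Of the 13, 1 did not overlap with control above and 2 with control below, beside 12.4% and 12.5% of all genes. ITGB4, the hemidesmosome partner of the anchoring laminin, was singled out after its values were seen, at 2629, 1363 and 786 CPM in control and 1051, 860 and 961 CPM in knockdown (log2 fold change 0.73, SE 0.37, edgeR adjusted p 0.319). Its pair ITGA6 stood at 336, 253 and 186 CPM in control and 185, 189.6 and 325 CPM in knockdown, with overlap (log2 fold change 0.15, SE 0.28). Without control repeat 3, 3 receptors, ITGA3, ITGA7 and ITGB4, met the DEG criteria as higher in control, as did 6.5% of all genes. Without control repeat 1, 0 receptors met them, and the log2 fold change of ITGB4 was 0.17. With the FPKM column of control repeat 2 the values were 0.90 for ITGA3, 0.49 for ITGA7 (edgeR p 0.131), 0.54 for ITGB4, -0.63 for DAG1 and -0.57 for SDC1. RPSA, a ribosomal protein also known as a laminin receptor, had the highest mean CPM of the list, between 1412 and 1820 in the 6 libraries, and a log2 fold change of 0.0026 whose sign turned in 9 of the 13 other settings.

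**Figure D4:**
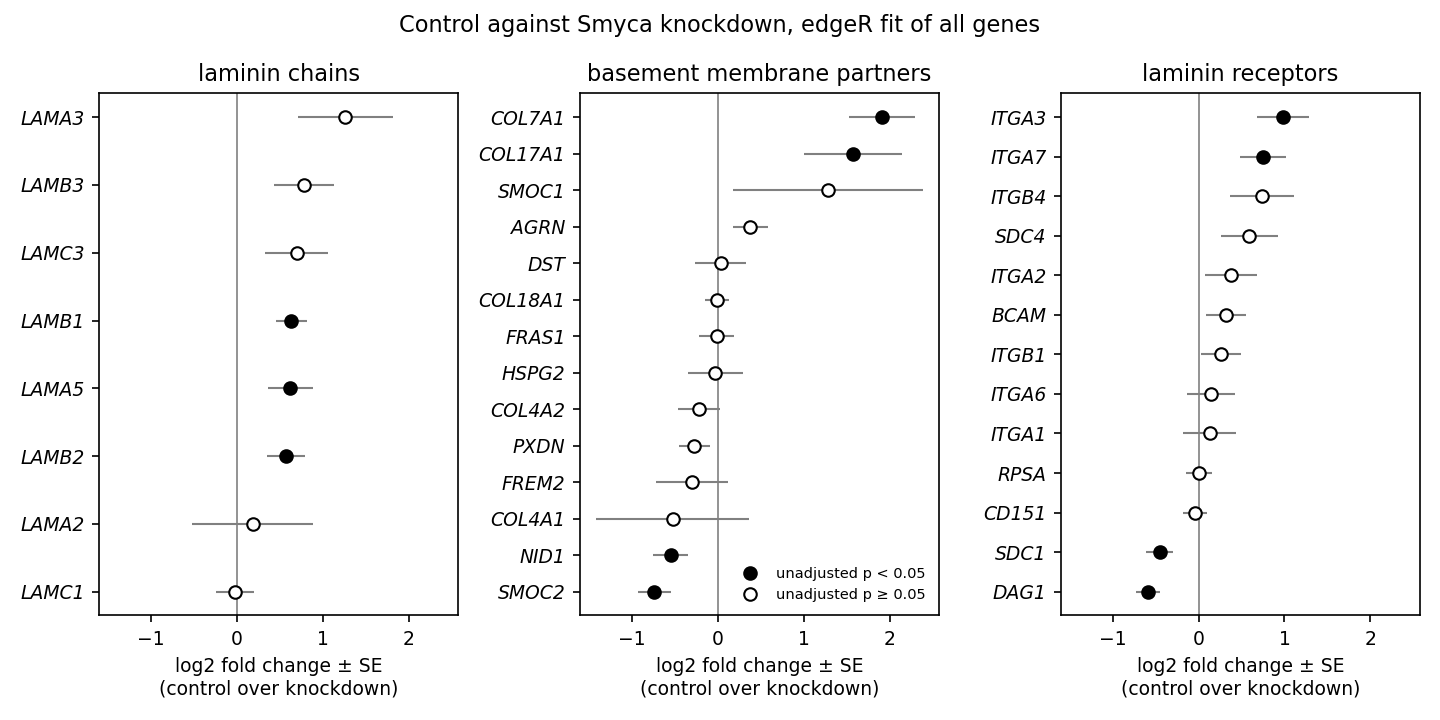
Log2 fold change with its SE (horizontal axis, control over knockdown) of the tested laminin chains, basement membrane partners and laminin receptors, each row a gene. Filled points have an unadjusted edgeR p under 0.05, and no gene shown met the DEG criteria by edgeR. LAMA5, LAMB1 and LAMB2 are the filled laminin chains, between 0.57 and 0.63, and DAG1 and SDC1 lie left of zero.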

How the data were processed

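RNA-seq was made from total RNA after removal of ribosomal RNA, as paired-end reads of a strand-specific library, for 3 control and 3 Smyca shRNA libraries. Per the study's methods, the authors aligned the reads to hg38 with TopHat 2.0.12 and counted them with HTSeq. The annotation release and strand setting were not given in the sources used here. Each deposited file held whole-number read counts and FPKM of 58302 Ensembl genes, of which 57532 matched a symbol. Counts were tested here with edgeR 4.0.16 (TMM, filterByExpr, quasi-likelihood test, no block, Benjamini-Hochberg adjustment over 15075 genes), in R 4.3.3, after a check on simulated data. Whole reads behind the FPKM of control repeat 2 were recovered (100% of values whole within 0.05) and used as an alternative. Canonical transcript lengths and positions came from GENCODE 44. Members were given by name, partner lists by function, and for each tested member the 2 most alike genes were taken by likeness. From the partner lists, values were printed for genes past an unadjusted p of 0.05 or with the highest level, and COL4A1, COL4A2, ITGA6 and ITGB4 were named after their values were seen. 1 laminin gene outside the members is not reported here. The members and lists were chosen with earlier results of these data known. Other settings were size factors by RLE, total counts, no or a stricter filter (10 counts in every sample), DESeq2 1.42.0, a replicate block and leaving out each library. Summed markers ranged over the 6 libraries from 26.3 to 74.2 CPM for liver, 10.5 to 31.6 CPM for fibroblasts (11.1 to 14.3 CPM in knockdown), 3.05 to 9.50 CPM for endothelium and 0.508 to 2.24 CPM for leukocytes.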

Additional observations from a re-analysis of the deposited data

How the results depend on the processing

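The count of DEGs among all genes was 4 and became 8 with total counts, 916 with no filter, 836 with DESeq2, 0 with the replicate block and 10 with the reads behind the FPKM of control repeat 2. Leaving out 1 library at a time gave 0 to 1628, the latter without control repeat 3, and genes at an unadjusted p under 0.05 ranged from 1687 (without knockdown repeat 2, and 1730 without control repeat 1) to 4575 (without control repeat 3). For the laminin members the count of DEGs was 1 with no filter (LAMA3) and 1 with DESeq2 (LAMB1), and 0 to 4 over the left-out libraries. Members at an unadjusted p under 0.05 numbered 5 with total counts, 5 with no filter, 1 with the FPKM reads and 1 to 5 over the left-out libraries. For the lists, no filter gave 3 DEGs among basement membrane partners, 2 among receptors, 1 among proteases and 1 among relatives of the laminin fold, and DESeq2 gave 2, 2, 1 and 1. Over the left-out libraries the counts were 0 to 2, 0 to 3, 0 to 1 and 0 to 2, with 0 to 2 for dystroglycan glycosylation, and each highest count was without control repeat 3. The cause of these differences was not tested.

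The log2 fold change of LAMC1 turned to 0.0409 with total counts and ranged from -0.23 to 0.14 over the left-out libraries, that of LAMA2 from -0.93 to 0.96 and that of POMGNT1 from -0.128 to 0.0497 (0.037 with total counts). RPSA was at -0.0127 with RLE, -0.0301 with no filter, -0.0127 with DESeq2, -0.0043 with the replicate block, -0.0801 with the FPKM reads and -0.0809 to 0.0898 over the left-out libraries. The difference in LAMB3 share (control minus knockdown, in percentage points) was -0.596 with the FPKM reads. Over the left-out libraries the differences ranged from -3.52 to 4.06 for LAMB3, -0.126 to 4.59 for LAMA3, -2.62 to 3.08 for LAMB1 and -3.47 to 0.447 for LAMB2. Over the 25 genes recomputed singly (ITGA6 and ITGB4 not among them) and the other settings, 278 values kept their direction and side of the DEG criteria, 26 newly met the criteria and 19 changed sign. The deviations of same-numbered control and knockdown libraries correlated at 0.061, 0.084 and -0.014, so the number was not taken as a pairing. With the replicate block in edgeR, no laminin member met the DEG criteria, as in edgeR without it. Lengths over merged exons, a setting chosen after seeing the data, put LAMB1 at 8.97% of the beta chains in control. The 6 tested members had at least 474 counts in each library, so their error came mainly from the spread between libraries.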

Other observations

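The genes that sugar dystroglycan, process laminin chains or share the laminin fold held 0 DEGs by edgeR, and by DESeq2 1 protease, PLAU, and 1 netrin, NTN5. Of 9 dystroglycan glycosylation genes tested, 1 was higher in control at an unadjusted edgeR p under 0.05, POMT1, a protein O-mannosyltransferase, at 20.2, 12.7 and 14.0 CPM in control and 8.95, 10.6 and 10.6 CPM in knockdown (log2 fold change 0.64, SE 0.24). POMGNT1, the highest of that list, had a log2 fold change of -0.03 (SE 0.15), positive in 3 of the 13 other settings. Among proteases that process laminin or its surroundings, 5 of 9 were tested and 2 were higher in control at that mark. PLAU, the urokinase that activates plasmin, stood at 47.9, 32.5 and 23.1 CPM in control and 12.6, 11.0 and 8.85 CPM in knockdown (log2 fold change 1.67, SE 0.28, edgeR adjusted p 0.111). BMP1, a procollagen and laminin processing protease, had a log2 fold change of 0.47 (SE 0.20), and MMP14, a membrane metalloprotease and the highest of that list, had 0.51 (SE 0.32). Of 7 genes with a laminin fold outside the family, 4 were tested, and the netrins NTN4 (1.57, SE 0.50) and NTN5 (2.11, SE 0.47) were higher in control at the same mark, with levels of at most 4.07 CPM. Of all genes tested, 10.4% were higher in control at that mark, and DESeq2 called 3.32% higher. With the FPKM column of control repeat 2 the log2 fold changes were 0.16 for MMP14, 0.42 for BMP1 (edgeR p 0.0629), 1.51 for PLAU, 0.73 for POMT1, -0.11 for POMGNT1, 1.46 for NTN4 and 1.98 for NTN5.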
